A study of Mus musculus with 4 samples.

Results

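Mitochondrial ribosomal protein genes were taken as the RefSeq protein-coding genes of mouse build mm10 whose symbol is Mrpl or Mrps followed by a number and at most 1 letter. There were 78 of them among 21887 protein-coding genes on chromosomes 1 to 19, X and Y, with 49 Mrpl and 29 Mrps symbols on 17 chromosomes. They were chosen by name and not by any measured value. The data are peak lists from chromatin immunoprecipitation followed by sequencing (ChIP-seq), which maps where a protein sits on DNA. A Slug (Snai2) library came from pBl.1G cells, labelled as epithelial with high Slug, precipitated with a rabbit monoclonal against Slug. A Snail (Snai1) library came from pBl.3G cells, labelled as mesenchymal with high Snail, precipitated with an antibody whose label names both SNAIL and SLUG. Both are breast cancer lines from the MMTV-PyMT mouse, whose tumours come from the polyoma middle T oncogene under a mammary tumour virus promoter active in mammary epithelium. Cells were untreated and fixed in 1% formaldehyde for 10 min. The input DNA library of each line was not used here.

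Each factor has 1 library, so differences between the lists have no replicate check and no test was made. The libraries also differ in cell line and antibody, whose effects and those of the factor cannot be told apart. The Slug list held 41612 peaks with a median width of 206 bp, and the Snail list held 28375 peaks with a median width of 722 bp. A peak's score is the value given by the authors' peak caller. It ranks peaks within a list and is not compared between lists, whose lowest score was 50 in each. The lists hold positions and scores, so sequencing depth is unknown and the labelled cell types could not be checked against marker expression.

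The mitochondrial ribosome makes the few proteins that mitochondrial DNA encodes, all of them parts of the oxidative phosphorylation (OXPHOS) machinery of the inner membrane. Its ribosomal RNAs come from mitochondrial DNA, but all its proteins are encoded in the nucleus, made in the cytosol and imported. Some have counterparts in bacterial ribosomes and others were gained in the mitochondrial lineage. Slug and Snail are zinc finger repressors that bind the E-box CAGGTG and are known for their part in the epithelial-mesenchymal transition.

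Slug peaks lay at about 1 in 5 of these genes and Snail peaks at nearly all. Of the 78 genes, 16 (20.5%, 95% Wilson interval 13 to 30.8) had a Slug peak with its midpoint within 1 kb of either end of the gene span, against 12.1% of all protein-coding genes. A Snail peak lay there in 72 (92.3%, 84.2 to 96.4), against 48.7% of all protein-coding genes. The intervals cover counting error over genes only. Both lists had a peak at 15 genes (19.2%, against 8.88% of all), Slug alone at Mrpl22 (1.28%, against 3.25%), Snail alone at 57 (73.1%, against 39.8%), and neither at 5 (6.41%, against 48.0%). The Slug share stood above that of all genes but was close to that of genes with a Snail peak: of the 72 members with a Snail peak 15 (20.8%) also had a Slug peak, against 18.2% of all protein-coding genes with a Snail peak. Of the 6 members without one, 1 had a Slug peak, against 6.34% of all such genes. The Slug share of the family also rested on low scores. With a minimum score of 100, 3 members (3.85%) kept a Slug peak, against 4.72% of all genes, so the direction turned, while the Snail count stayed at 72. Within 10 kb of an end, 42 members (53.8%) had a Slug peak, against 47.6% of all genes, and all 78 had a Snail peak, against 64.1% of all genes.

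Promoter sequences are shown for 6 members with overlapping Slug and Snail peaks at a gene end, in order of Slug score. The lists come from different lines and antibodies, so an overlap does not show that both factors bind the same site. Mrps34, which would stand between Mrpl36 and Mrpl21, was not matched in the promoter table. The sequences are from RefSeq, build GRCm38.p6, the assembly of mm10, and run 5′ to 3′ on the gene strand from 250 bases before to 50 bases after the listed transcription start. All 6 genes lie on the plus strand. Capitals mark matches on either strand to CAGGTG (the Snail-type E-box), CCGGAAG (ETS factors), GCGCA followed by any base and GCGC (NRF1) and AAGATGGC (YY1). Mrpl1 holds none of them. The windows are Mrps18a chr17:46110754-46111053, Mrpl30 chr1:37890227-37890526, Mrpl1 chr5:96209865-96210164, Mrpl36 chr13:73330759-73331058, Mrpl21 chr19:3282792-3283091 and Mrps9 chr1:42850983-42851282.
Mrps18a: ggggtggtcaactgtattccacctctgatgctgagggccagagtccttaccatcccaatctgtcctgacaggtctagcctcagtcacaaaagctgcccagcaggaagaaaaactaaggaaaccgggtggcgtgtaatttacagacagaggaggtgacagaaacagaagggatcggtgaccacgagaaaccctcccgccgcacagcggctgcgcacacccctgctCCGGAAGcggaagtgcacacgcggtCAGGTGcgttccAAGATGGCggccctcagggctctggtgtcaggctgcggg
Mrpl30: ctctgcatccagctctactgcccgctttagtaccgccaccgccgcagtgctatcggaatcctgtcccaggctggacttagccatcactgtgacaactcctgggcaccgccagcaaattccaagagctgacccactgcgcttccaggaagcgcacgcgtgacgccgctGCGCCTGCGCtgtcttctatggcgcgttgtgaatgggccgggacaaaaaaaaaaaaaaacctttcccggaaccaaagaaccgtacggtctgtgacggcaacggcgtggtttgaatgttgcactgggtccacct
Mrpl1: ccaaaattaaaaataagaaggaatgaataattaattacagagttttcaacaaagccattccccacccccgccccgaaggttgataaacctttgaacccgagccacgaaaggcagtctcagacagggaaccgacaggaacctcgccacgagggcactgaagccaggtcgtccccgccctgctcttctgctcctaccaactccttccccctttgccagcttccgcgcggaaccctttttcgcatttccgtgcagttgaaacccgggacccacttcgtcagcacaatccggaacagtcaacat
Mrpl36: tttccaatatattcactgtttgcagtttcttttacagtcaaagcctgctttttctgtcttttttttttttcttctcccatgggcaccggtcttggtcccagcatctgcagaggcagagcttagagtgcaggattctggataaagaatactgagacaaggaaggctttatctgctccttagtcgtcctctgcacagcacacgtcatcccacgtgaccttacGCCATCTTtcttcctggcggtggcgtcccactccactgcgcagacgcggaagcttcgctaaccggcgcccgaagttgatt
Mrpl21: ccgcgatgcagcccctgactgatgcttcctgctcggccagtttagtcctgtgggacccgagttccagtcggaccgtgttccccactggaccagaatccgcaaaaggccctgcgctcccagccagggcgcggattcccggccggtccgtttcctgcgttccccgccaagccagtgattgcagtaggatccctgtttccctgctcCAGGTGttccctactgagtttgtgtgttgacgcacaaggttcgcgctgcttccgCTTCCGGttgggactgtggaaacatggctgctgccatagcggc
Mrps9: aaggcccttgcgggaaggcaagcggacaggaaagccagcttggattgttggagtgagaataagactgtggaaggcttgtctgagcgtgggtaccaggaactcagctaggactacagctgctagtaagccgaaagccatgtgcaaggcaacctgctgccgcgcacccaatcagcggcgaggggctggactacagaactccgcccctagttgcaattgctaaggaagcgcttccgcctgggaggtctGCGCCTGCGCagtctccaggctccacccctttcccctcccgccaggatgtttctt
The Snail peaks covered all 300 bases of each window. Slug peaks covered 295 bases in Mrps18a, 138 in Mrpl30, 194 in Mrpl1, 198 in Mrpl21 and 156 in Mrps9. In Mrpl36 they covered 0, because its Slug peak lies at the start end of the gene span, and the listed start is 2506 bp from there. The Snail peak over the Mrpl36 window (73330655 to 73331653, score 348.4) is also not the Snail peak that overlaps its Slug peak.

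The shared site with the highest Slug score was at Mrps18a, which despite its name encodes a protein of the large subunit, a paralogue of Mrps18b and Mrps18c. Its Slug peaks scored 203.8 (chromosome 17, 46110882 to 46111170, the higher of a pair) and 64.89 (46110698 to 46110876). Both lay inside 1 Snail peak, which spans 46110623 to 46111383 and scored 1381. Its E-box, at 46111003 to 46111008 across the listed start, was 20.5 bp from the midpoint of the stronger Slug peak and 2.5 bp from that of the Snail peak. Mrpl30, whose product has a bacterial counterpart in the large subunit, had a Slug score of 130.7 (chromosome 1, 37890389 to 37890668) inside a Snail peak with a score of 1196. Its promoter holds no CAGGTG, and the capitals in it are an NRF1 match. The Slug peak of Mrpl21 (chromosome 19, 3282894 to 3283123, score 66.74) had its midpoint 13 bp from that of a Snail peak scoring 1801, the third highest Snail score of the family. The E-box of this promoter, at 3282995 to 3283000, was 11 bp from the Slug and 2.0 bp from the Snail midpoint. In Mrps18a and Mrpl21 the word thus sat near the centre of both peaks. Other E-box matches inside Snail peaks of the family lay from 20 bp (Mrps18c) to 418.5 bp (Mrpl58) from the Snail midpoint. That of Mrpl27 lay 215 bp from it.

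The remaining Slug peaks within Snail peaks all scored under 100. Mrpl1 scored 92.53, Mrpl36 89.93, Mrps34 78.70 and Mrps9 62.95 in the Slug list. Mrps35 (55.19), Mrpl44 (53.62), Mrpl49 (52.88), Mrps31 (52.76), Mrpl27 (50.69) and Mrpl45 (50.40) were close to the lowest accepted score of 50. Mrpl44 is related to ribonuclease III and Mrpl45 sits near the exit of the protein tunnel. The Snail scores at the same genes ran from 256.8 at Mrps34 to 1577 at Mrps35. Over the whole family, 14 of the 17 Slug peaks scored under 100 and 12 were below the Slug list's median of 81.13. The median of the highest Slug score per gene was 64.84 in the 16 members and 81.76 in all protein-coding genes with a Slug peak, with medians of 192 and 223 bp in width. A score of at least 100 was reached by 3 of the 16 (18.8%), against 38.9% of all genes with a Slug peak, and of at least 1000 by 0, against 0.301%. The top quintile of the Slug list held the best peak of 2 (12.5%), against 17.4% of all.

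**Figure D1:**
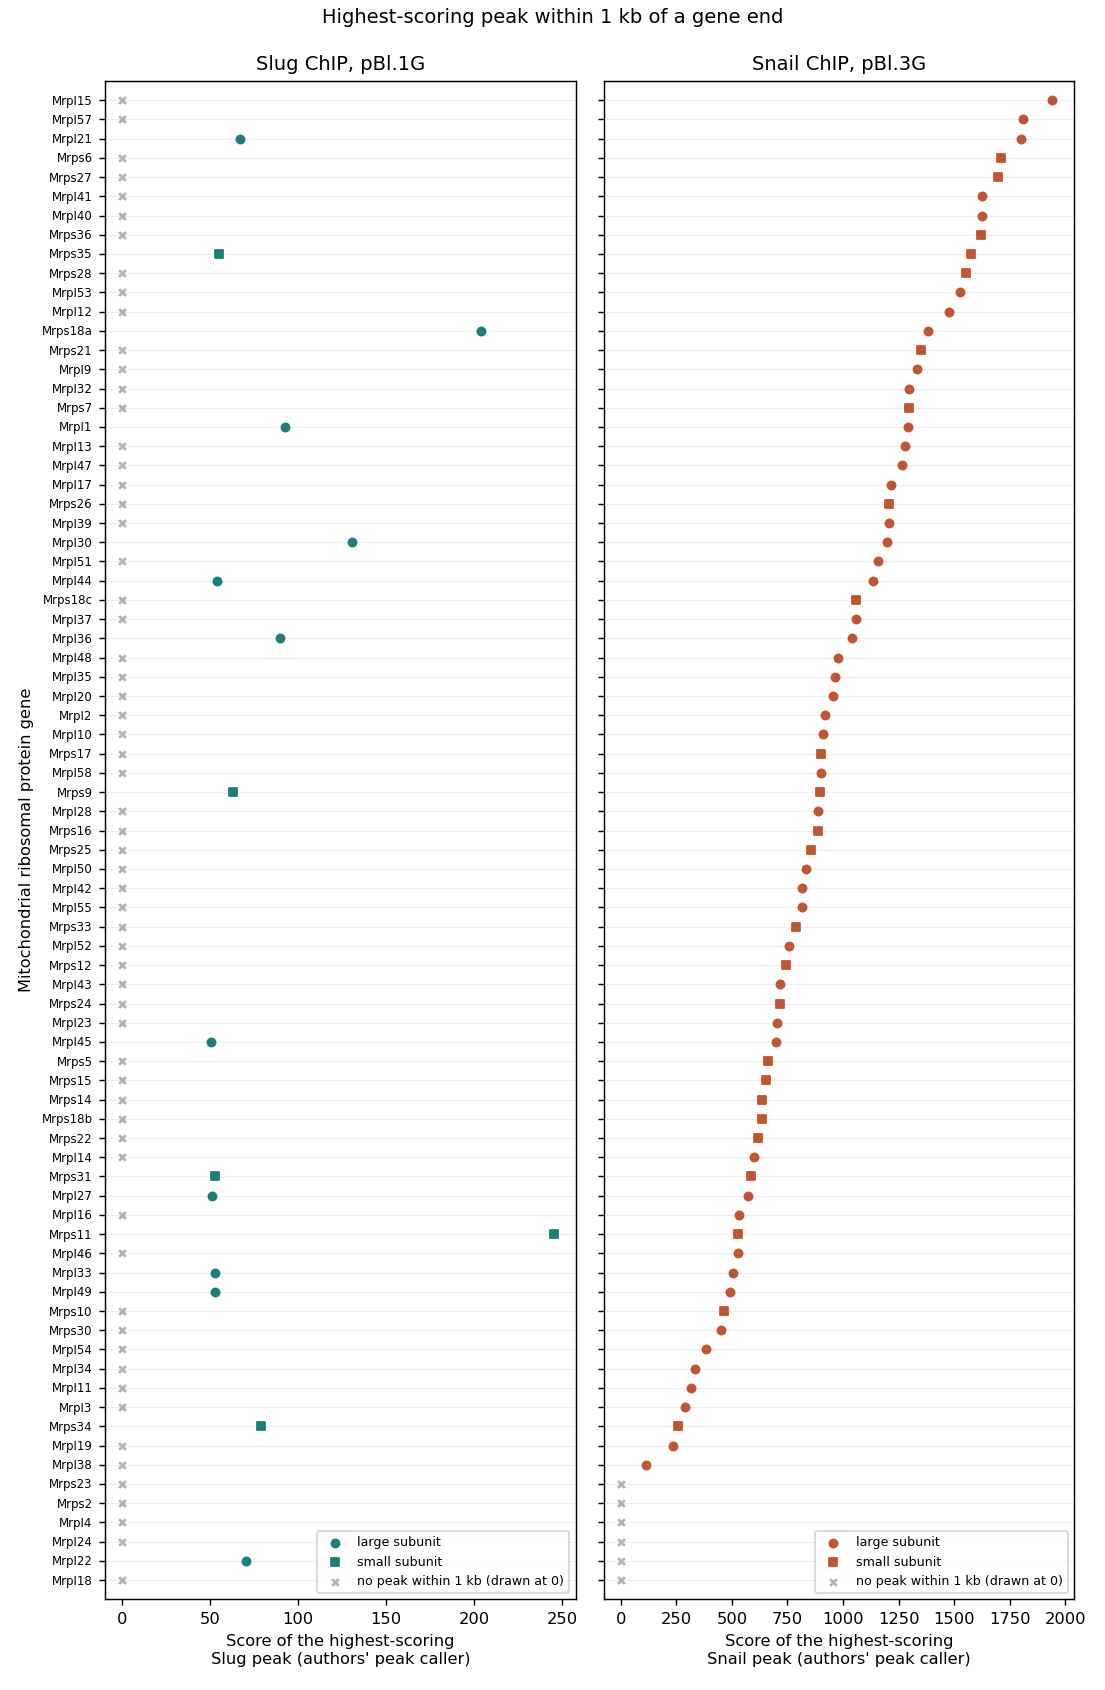
Highest-scoring Slug peak (left, pBl.1G) and Snail peak (right, pBl.3G) within 1 kb of an end of each gene, 1 gene per row ordered by Snail score, with score on the horizontal axis of each panel and a grey cross at 0 where there was no peak. Slug peaks are scattered along the order of Snail scores, 72 genes have a Snail point and 16 a Slug point, and the scales of the panels are not comparable.

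Slug peaks at these genes lay inside Snail peaks when they were at the start. Of the 17 Slug peaks, 14 (82.4%, 59.0 to 93.8) overlapped a Snail peak by at least 1 bp, against 54.3% of Slug peaks at the ends of all protein-coding genes. All 14 were wholly contained in the Snail peak, with midpoints 13 to 601.5 bp apart (median 151.5 bp). The share over all genes includes genes without a Snail peak, which are fewer in this family. Among genes with a peak of each list, the highest-scoring Slug peak overlapped a Snail peak in 13 of 15 members. Over all protein-coding genes of that kind it did so in 1467 of 1943. Of the 74 Snail peaks at these genes, 13 (17.6%, 10.6 to 27.8) overlapped a Slug peak, against 12.8% of Snail peaks at all protein-coding gene ends. Strand was known for 69 members and 17492 protein-coding genes. All 12 Slug peaks nearest a start overlapped a Snail peak, against 69.3% over all genes, and 0 of 3 nearest the far end did, against 21.3% over all genes. These shares over all genes also include genes without a Snail peak. The 3 Slug peaks nearest a far end were at Mrps11, Mrpl22 and Mrpl33. The Mrps11 peak (chromosome 7, 78791973 to 78792156) lay 923.5 bp inside the far end and had the highest Slug score of the family, 245.5. The Mrpl22 peak scored 70.13 and lay 113.5 bp beyond the far end, and that of Mrpl33 scored 52.85 and lay 857 bp inside it. A minimum score of 100 left 3 Slug peaks, of which 2 overlapped a Snail peak, against 48.0% over all genes. No Slug peak met a reciprocal overlap of 50%, since Slug peaks are narrower, and over all genes 3.08% did.

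Snail peaks were high-scoring within their list at this family. The highest Snail score per gene ranged from 113.1 to 1943 with a median of 898.5 (quartiles 630 and 1280), against a median of 722.3 (392 and 1070) in all protein-coding genes with a Snail peak. A score of at least 1000 was reached by 29 of 72 members (40.3%, 29.7 to 51.8), against 29.5% of all. A score of at least 100 was reached by all 72, against 93.9% of all. The top quintile of the Snail list held the best peak of 50 (69.4%), against 51.9% of all. Width stood close to that of other genes, with a median of 1092 bp in the members and 1068 bp in all.

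Of the 10 highest Snail scores 4 were at genes whose products have bacterial counterparts. Among the 72 members with a Snail peak, 41 were of this kind. Mrpl15, a large subunit protein of that kind, came first with 1943 (chromosome 1, 4785254 to 4786118). Mrpl57, a short protein found in mitochondrial ribosomes only, followed with 1812 (chromosome 14, 57825716 to 57826894), and Mrpl21 with 1801. Mrps6 scored 1709, and Mrps27, a pentatricopeptide repeat protein of the small subunit, scored 1699. Mrpl41 (1625), Mrpl40 (1624), Mrps36 (1619), Mrps35 (1577) and Mrps28 (1554) completed the 10. Mrps36 was kept with the small subunit by name, although its product is now described as part of the alpha-ketoglutarate dehydrogenase complex. Mrpl21 and Mrps35 also had a Slug peak. At the low end were Mrpl38 (113.1), Mrpl19 (236.0) and Mrps34 (256.8). Taking the highest-scoring Snail peak within 1 kb of an end of each gene, Mrps34 had the widest, 3812 bp, followed by Mrpl43 with 3254 bp, Mrpl53 with 2400 bp, Mrpl49 with 2117 bp and Mrpl48 with 2073 bp. Mrpl3 had the narrowest of these, 531 bp. Mrpl12, a protein of the stalk that receives translation factors, scored 1477, and Mrps12, which lies at the decoding centre, 743.5.

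The Snail peaks sat on transcription starts. Slug peaks lay within 1 kb of the start end in 11 of the 69 members with strand (15.9%, against 9.26% of all) and of the far end in 3 (4.35%, against 3.13% of all), which had none at the start. Snail peaks lay at the start end in 63 (91.3%, against 47.5% of all) and at the far end in 5 (7.25%, against 6.05% of all). In 1 of these 5, Mrps18b, the peak was at the far end only (1.45%, against 1.76% of all). Of the 63 Snail peaks nearest a start, 43 had the midpoint within 200 bp of it, and the median distance was 135.5 bp. The same distances over all protein-coding genes are not given here, so they cannot be called particular to the family.

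The genes without a Snail peak in the window were Mrpl4, Mrpl18, Mrpl22, Mrpl24, Mrps2 and Mrps23, and each had one farther away. The nearest midpoint to an end was 1212 bp away in Mrpl24 (score 222.5), just outside the window, whereas Mrps31 was just inside at 944 bp with a score of 583.6. It was 1322 bp away in Mrpl18 (score 1213), 1710 bp in Mrpl22 (294.1), 1833 bp in Mrpl4 (1247) and 2156 bp in Mrps2 (1086), inside the span in each. In Mrps23 it was 2730 bp outside the span, with a score of 80.14. For Slug, Mrps11 was just inside at 923.5 bp and Mrpl12 just outside at 1301 bp. The ends of a RefSeq span are those of its outermost transcript. In Mrps2, Mrps23, Mrpl18, Mrpl22, Mrpl24 and Mrpl36, the start listed in the RefSeq promoter table was between 1413 and 10282 bp from the start end of the span.

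Measured from the listed starts, a choice made after these values were seen, no member with a listed start lacked a Snail peak. A Snail peak covered the listed start in 69 of 69 members with one (94.7 to 100%), against 49.9% of all protein-coding genes. It also did so in 51 of 51 nuclear-encoded OXPHOS subunit genes. A Slug peak covered the listed start in 9 of 69 members (13%, 7.02 to 23.0), against 2.42% of all genes. Both lists covered it in the same 9, against 2.11% of all genes, and of genes with a Snail peak over the start 4.23% had a Slug peak over it too. The 9 were Mrpl1, Mrpl21, Mrpl27, Mrpl30, Mrpl44, Mrpl45, Mrpl49, Mrps18a and Mrps31. With a Slug score of at least 100 there were 2 of 69 (2.90%), Mrps18a and Mrpl30, against 1.05% of all genes. A Slug midpoint lay within 1 kb of any listed start in 11 of 69 (15.9%), against 10.3% of all genes, and a Snail midpoint in 68 (98.6%), against 51.8% of all genes. In Mrps23 the Snail peak over the listed start, 10282 bp from the start of the span, scored 1005. Mrps18b was the member with no midpoint within 1 kb of its listed start, because the peak that covers this start, which scored 417.2, is 6685 bp wide. Mrpl4, Mrpl13, Mrpl15, Mrpl19, Mrpl38, Mrpl54, Mrps28, Mrps34 and Mrps35 were not matched in that table.

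**Figure D2:**
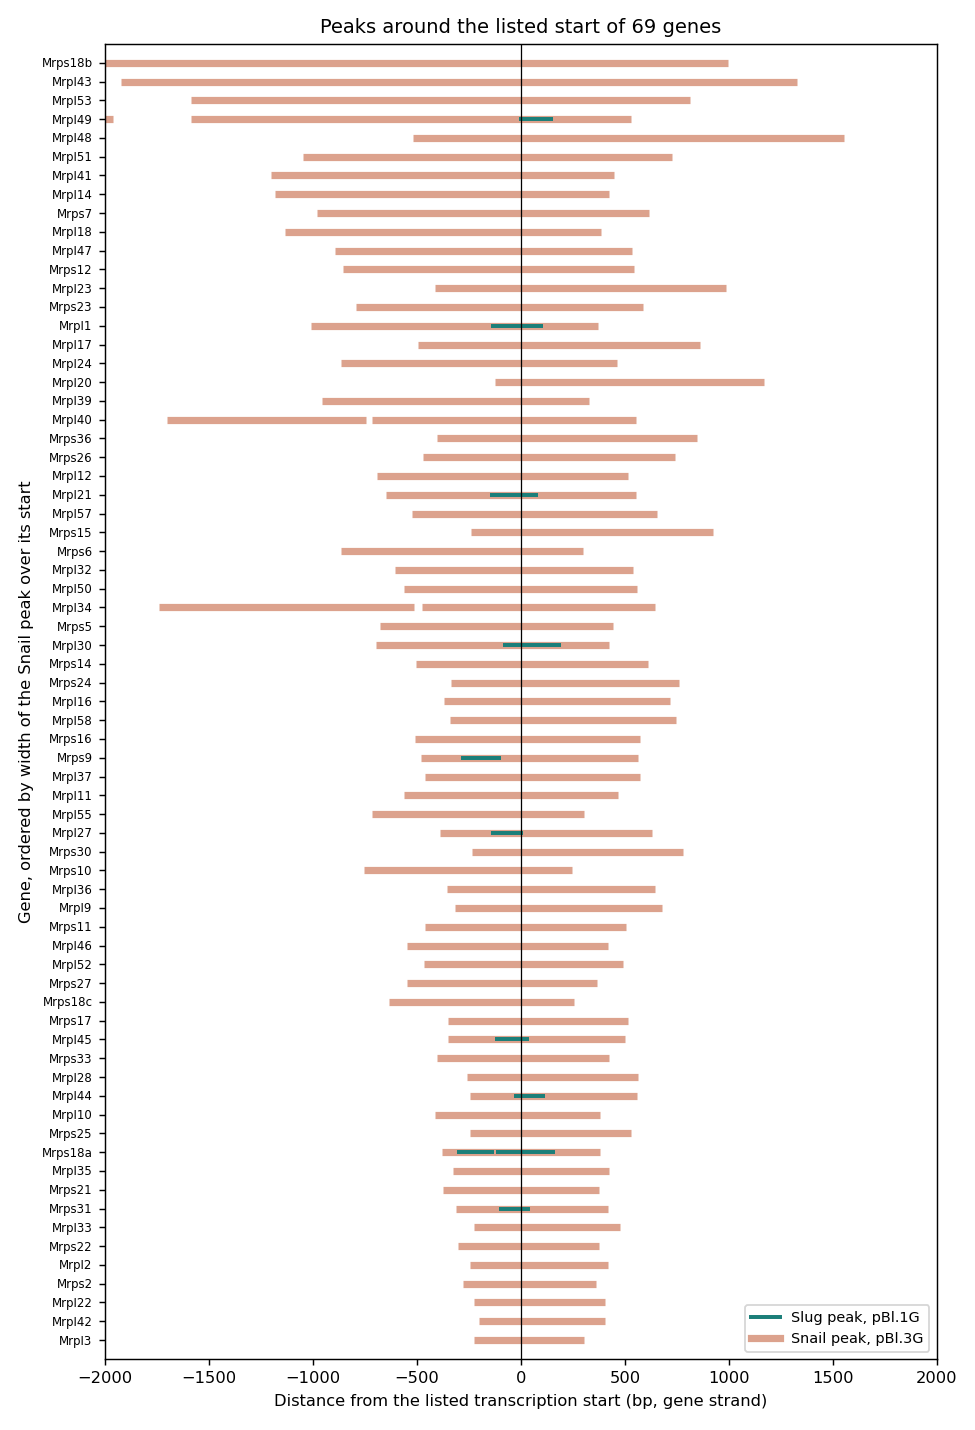
Slug peaks (narrow dark lines) and Snail peaks (wide pale lines) around the listed transcription start of 69 genes, 1 gene per row ordered by the width of the Snail peak over the start, with distance along the gene strand in bp, drawn to 2 kb on either side. A Snail peak crosses 0 in every row, and the Slug peaks drawn, in 10 rows, lie inside it.

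Many of these genes share their start region with a neighbour. Of the 69 with strand, 27 (39.1%, 28.5 to 50.9) had the start of a protein-coding gene on the other strand within 1 kb, here called a divergent partner, against 10.2% of all protein-coding genes with strand. For divergent partners and pairs, starts are the start ends of gene spans and not the listed starts. Whatever the strand, 44 of 78 (56.4%) had the end of another protein-coding gene within 1 kb, against 24.8% of all. A Slug peak lay at 8 of these 44 (18.2%, against 16.1% of all such genes) and at 8 of the 34 without such an end (23.5%, against 10.8%). A Snail peak lay at 40 of these 44 (90.9%, against 74.5% of all such genes) and at 32 of the 34 without such an end (94.1%, against 40.2%). A Slug peak lay at 6 of the 27 members with a divergent partner (22.2%, against 16.8% of all such genes) and at 8 of the 42 without (19%, against 11.1%). A Snail peak lay at 26 of the 27 (96.3%, against 91.4%) and at 38 of the 42 (90.5%, against 44.5%). The Snail share was thus high in the family with or without a partner. Median Snail scores were 1010 with and 887.6 without a partner, against 977 and 682.2 in all protein-coding genes.

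The 27 genes formed 26 pairs, with a median of 106.5 bp between the starts. In 16 pairs the gene spans did not overlap, and in 10 they overlapped, with starts up to 779 bp apart in Mrpl43 with Twnk. In 23 pairs 1 Snail peak had its midpoint within 1 kb of both genes and covered the start ends of both spans. Shares of pairs with a shared peak over all protein-coding genes are not given here. The 5 with the highest scores were Mrpl57 with the kinetochore gene Ska3 (1812), Mrpl21 with the helicase gene Ighmbp2 (1801), Mrps27 with Ptcd2, a mitochondrial pentatricopeptide protein (1699), Mrpl41 with Pnpla7 (1625), and Mrpl40 with the histone chaperone gene Hira (1624). Their starts were 63, 13, 89, 892 and 113 bp apart, and the spans of Mrpl57 and Mrpl21 overlapped those of their partners. Mrpl46 and Mrps11, the single pair made of 2 members, share a Snail peak (chromosome 7, 78782668 to 78783638, score 527.7) across starts 42 bp apart. Some partners, picked after the list was seen, also encode mitochondrial proteins. Mrpl47 pairs with Ndufb5 and Mrpl36 with Ndufs6, both subunits of respiratory complex I, and Mrps12 with Sars2, the mitochondrial seryl-tRNA synthetase. Their shared Snail peaks scored 1265, 1041 and 743.5. Slug peaks were shared by 5 pairs, Mrpl30 with Mitd1 (130.7), Mrpl36 with Ndufs6 (89.93), Mrpl21 with Ighmbp2 (66.74), Mrpl49 with Fau (52.88) and Mrpl27 with Eme1 (50.69). The listed start of Mrpl36, 2506 bp from the start of its span, lies outside the Slug and Snail peaks it shares with Ndufs6. The Snail peak over that listed start scored 348.4. Mrpl43 with the mitochondrial helicase gene Twnk, Mrps18b with Ppp1r10 and Mrps2 with 1700007K13Rik had no shared peak by the midpoint rule. Snail peaks of 3254 bp at Mrpl43 with Twnk and 6685 bp at Mrps18b with Ppp1r10 still covered both starts. Peaks at shared starts cannot be assigned to either gene.

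Shares were similar by subunit and by ancestry. By the structure of the ribosome 51 members belong to the large and 27 to the small subunit, since Mrps18a and Mrps30 encode large subunit proteins. Mrps36 is counted among the 27 by name only. A Slug peak was at 11 of the 51 (21.6%) and at 5 of the 27 (18.5%), and a Snail peak at 47 (92.2%) and at 25 (92.6%). Median Snail scores were 918.9 and 854.0. Of 46 members with a bacterial counterpart 9 (19.6%) had a Slug and 41 (89.1%) a Snail peak. Of 32 members classed as particular to mitochondrial ribosomes, Mrps36 among them, 7 (21.9%) had a Slug and 31 (96.9%) a Snail peak. Median Snail scores were 901.8 and 854.0. Each difference in share between classes amounts to a few genes.

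Other genes of mitochondrial gene expression looked alike in the Snail list. All 5 mitoribosomal proteins with other symbols (Dap3, Ptcd3, Aurkaip1, Chchd1 and Gadd45gip1) had a Snail peak and 1 a Slug peak. Of 23 assembly factors of the mitochondrial ribosome 7 had a Slug and 23 a Snail peak. Of 17 mitochondrial tRNA synthetases 5 had a Slug and 15 a Snail peak, and of 13 translation factors 1 had a Slug and 12 a Snail peak. Of 8 genes of mitochondrial DNA transcription and replication 2 had a Slug and 6 a Snail peak. Of 63 nuclear-encoded OXPHOS subunits 15 (23.8%) had a Slug and 60 (95.2%) a Snail peak, with a median Snail score of 917.7. Of 81 cytosolic ribosomal protein genes, whose products build the other ribosome of the cell, 9 (11.1%) had a Slug and 74 (91.4%) a Snail peak. Snail peaks at the cytosolic family had a median score of 789.8 and a median width of 1364 bp, beside 898.5 and 1092 bp in the mitochondrial family. Median Snail scores were higher in assembly factors (1284), mitochondrial tRNA synthetases (1174) and mitoribosomal proteins with other symbols (1016). They were lower in genes of mitochondrial DNA transcription and replication (887.8) and in translation factors (850.6). High Snail shares were thus also seen in OXPHOS and cytosolic ribosomal protein genes. A Snail peak covered the listed start in 51 of 51 OXPHOS genes, 17 of 17 assembly factors and 14 of 14 tRNA synthetases. The same held in 11 of 11 translation factors and 8 of 8 genes of mitochondrial DNA transcription and replication. It held in 57 of 61 cytosolic ribosomal protein genes (93.4%) and in 2 of 2 mitoribosomal proteins with other symbols. Over listed starts, Slug peaks covered 5 of 51 OXPHOS genes (9.80%) and 4 of 61 cytosolic ribosomal protein genes (6.56%), beside the 13% given above. They covered 3 of 14 mitochondrial tRNA synthetases (21.4%) and 3 of 17 assembly factors (17.6%). Among genes of mitochondrial DNA transcription and replication they covered 1 of 8 (12.5%). They covered 0 of 11 translation factors and 0 of 2 mitoribosomal proteins with other symbols.

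**Figure D3:**
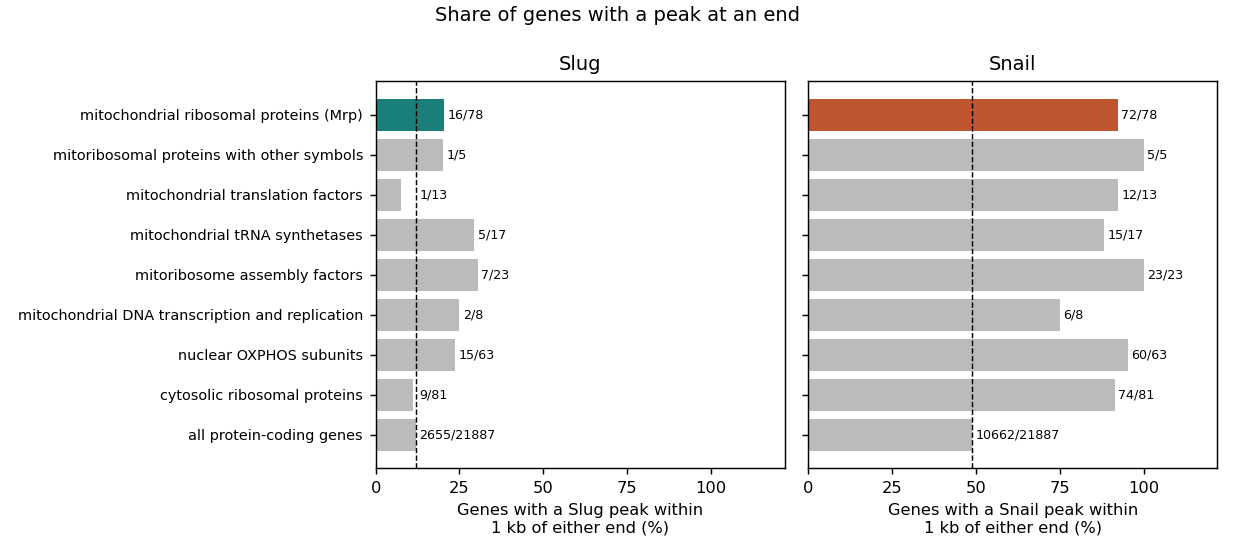
Share of genes in percent with a Slug peak (left) and a Snail peak (right) within 1 kb of either end, with the number of genes beside each bar and the share of all protein-coding genes as a dashed line. The mitochondrial ribosomal protein bars, in colour, reach 20.5% and 92.3%, and the cytosolic ribosomal protein bars 11.1% and 91.4%.

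Promoter words were counted in the 69 listed promoters of the family and in 17492 protein-coding promoters of the same length, on both strands. The E-box CAGGTG, or CACCTG on the other strand, was in 10 of 69 (14.5%), against 16.5% of promoters of genes with a Snail peak and 19.3% of all. It was in 3 of the 10 family promoters that overlapped a Slug peak (30.0%), against 7 of 59 others (11.9%), and over all genes in 39.0% of promoters with a Slug peak, against 18.4% of those without. The 3 were Mrps18a, Mrpl21 and Mrpl27, and each of these matches lay inside the Slug peak, 11 to 30.5 bp from its midpoint. Over all genes the word was in 16.1% of promoters that overlapped a Snail peak and in 22.4% of those that did not. The word was thus more frequent beside Slug peaks, and not beside Snail peaks, in the promoters of all genes.

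The ETS, NRF1 and YY1 words were in a larger share of the family's promoters than of either comparison set, and the share of the SP1 word stood between them. The ETS word CCGGAAG was in 24 (34.8%), against 20.1% of promoters of genes with a Snail peak and 11.9% of all. The NRF1 word, that of a factor known for nuclear genes of mitochondrial proteins, was in 13 (18.8%), against 11.7% and 6.66%. The YY1 word AAGATGGC was in 12 (17.4%), against 5.00% and 3.21%. The SP1 word GGGCGGG was in 29 (42.0%), against 50.2% and 34.0%. Counted on the gene strand alone, the SP1 word was in 20.3% of the family, against 29.9% and 20.2%. In the 6 promoters printed above no 2 matches overlap. The promoters held a median of 21 CpG, against 22 in genes with a Snail peak and 13 in all, and a median of 58.3% G and C, against 61.3% and 56.3%. Base composition differs between these sets of promoters, and its part in the counts was not tested. A match is a run of letters and not a site of binding.

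**Figure D4:**
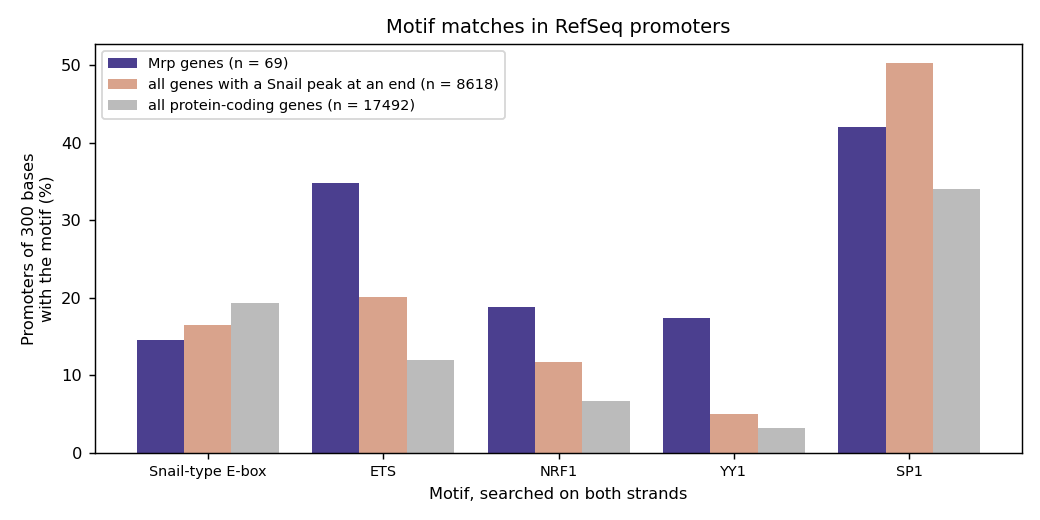
Percentage of promoters of 300 bases that hold each word on either strand, in the 69 listed promoters of the family, in 8618 promoters of genes with Snail at an end, and in all 17492. The family bar is the highest for the ETS (34.8%), NRF1 (18.8%) and YY1 (17.4%) words and the lowest for the E-box (14.5%).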

How the data were processed

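The 2 files used are peak lists, 1 per ChIP library, and the score of each peak is the value deposited by the authors. The submitters' processing notes name Bowtie, MACS 1.4.2 and mm10. By the convention of MACS 1.4 the score is a log-transformed p-value, but its scale is not stated in the files. MACS settings and control were not given in the sources used here. Genes, strands and promoters came from RefSeq tables of GRCm38.p6. From the lists, peak midpoints were set against the 2 ends of each gene span within 1 kb, and overlaps of at least 1 bp were called shared. Shares have Wilson intervals at 95%, which cover counting error only. Python 3.11.15 with numpy 2.4.6, pandas 2.3.3, scipy 1.17.1 and matplotlib 3.10.9 was used, and the assignment of peaks was tested on simulated data. Genes named were those with a Slug peak, the 10 with the highest and the 5 with the widest Snail peak, those with no peak, and the 5 highest-scoring divergent pairs. Mrpl3, Mrpl12, Mrpl19, Mrpl38, Mrpl46, Mrpl47, Mrps12 and Mrps18b were added after their values were seen. The genes and lists were chosen with earlier results of these data known.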

Additional observations from a re-analysis of the deposited data

How the results depend on the processing

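Over the alternatives that keep all 78 members, between 66 and 76 had a Snail peak. The 66 came from a window of 500 bp (84.6%, against 42.9% of all genes). The 76 came from a window of 2 kb (97.4%, against 52.9%). At the start end alone 63 of 69 had a Snail peak (91.3%, against 47.5%). The Slug results rested on low-scoring peaks. With a minimum score of 100, 3 members had a Slug peak (3.85%, against 4.72% of all genes) and 3 had both (3.85%, against 3.18%). Of their 3 Slug peaks 2 overlapped a Snail peak, against 48.0% over all genes. With both lists at their 28375 highest-scoring peaks, 9 members had a Slug peak (11.5%, against 8.43% of all genes) and 8 had both (10.3%, against 6.14%). A window of 500 bp left 9 with both (11.5%, against 5.27% of all genes). A reciprocal overlap of 50% left 0 shared Slug peaks, which follows from the narrower Slug peaks, and over all genes it left 3.08%. Of 51 alternative values, motif counts not included, 44 stayed within 1.5 times the count or inside the binomial interval of the median. Some of the 44 could not have moved. The whole Snail list holds 28375 peaks, so results from Snail peaks alone were fixed at that number. All 72 best Snail peaks of members scored at least 100, so that minimum could not change their count, score or width. Distances from listed starts were an alternative added after seeing the data. Counting words on the gene strand only moved 3 of the 5 motif counts by over 1.5 times. The E-box went to 6 from 10 promoters (8.7%, against 10.8% of all promoters). ETS went to 15 from 24 (21.7%, against 6.57%) and SP1 to 14 from 29 (20.3%, against 20.2%). Leaving out a strand can only lower a count, and the shares of all promoters fell too, from 19.3%, 11.9% and 34.0%. No paired analysis was possible because each group has 1 library. Without read counts, heights and depths of peaks are not known, and an absent peak may lie under the authors' threshold.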
